A study of Homo sapiens with 14 samples.

Results

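CDX1, CDX2, ISX, VIL1, FABP1, FABP2, CDH17 and LGALS4 are 8 genes of the intestinal epithelium, and they were picked by name as 8 of the 59050 gene symbols in a table of read counts. The counts come from HUES8, an established human embryonic stem cell line of wild-type (WT) genotype, taken at definitive endoderm (DE) and at both later stages of pancreatic progenitors, PP1 and PP2. Each stage was measured by RNA sequencing of rRNA-depleted total RNA (RNA) and by sequencing of ribosome-bound RNA (Ribo), with 2 DE, 2 PP1 and 3 PP2 libraries per assay, 14 in all. All libraries share this line and genotype, and no group received another agent that the labels name. The sources used here do not give the days and factors of the differentiation, nor whether libraries of a stage came from separate cultures, so p-values measure a spread that may be technical. Values are in CPM, read counts scaled by library size, over sizes adjusted by the trimmed mean of M-values.

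The definitive endoderm is the embryonic layer from which gut, liver and pancreas form. CDX1 and CDX2 are caudal-type homeobox transcription factors that give the hind part of this layer its intestinal identity, and in the adult CDX2 keeps intestinal genes on. ISX is an intestine-specific homeobox factor that limits vitamin A uptake by repressing the genes of the carotenoid importer and cleavage enzyme. VIL1 (villin) bundles actin in the microvilli of the brush border, and CDH17 (liver-intestine cadherin) is an adhesion protein of the gut epithelium. FABP1 and FABP2, the liver and intestinal fatty acid binding proteins, carry fatty acids inside enterocytes, with FABP1 also abundant in hepatocytes. LGALS4 (galectin-4) is a sugar-binding lectin of the digestive tract.

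The sequences just upstream of the transcription start were examined because CDX proteins bind AT-rich sites in the promoters of intestinal genes. RefSeq promoters (GRCh38.p14) matched 5 of the 8 genes, namely CDX2, ISX, FABP1, FABP2 and LGALS4. The 250 bases upstream of the start are printed for CDX2, ISX and FABP1, whose RNA moved together, and for FABP2, whose RNA stayed at or near 0. They run 5′ to 3′ on the strand of the gene, at chr13:27969316-27969565 (minus strand) for CDX2, chr22:35065908-35066157 (plus strand) for ISX, chr2:88128063-88128312 (minus strand) for FABP1 and chr4:119322139-119322388 (minus strand) for FABP2. Capitals mark each match to the CDX motif CNATAAA, searched on both strands.
CDX2: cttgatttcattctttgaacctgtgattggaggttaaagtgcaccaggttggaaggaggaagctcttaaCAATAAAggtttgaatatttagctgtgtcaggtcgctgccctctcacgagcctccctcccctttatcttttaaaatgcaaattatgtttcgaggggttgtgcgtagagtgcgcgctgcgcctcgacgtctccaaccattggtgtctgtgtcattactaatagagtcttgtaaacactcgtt
ISX: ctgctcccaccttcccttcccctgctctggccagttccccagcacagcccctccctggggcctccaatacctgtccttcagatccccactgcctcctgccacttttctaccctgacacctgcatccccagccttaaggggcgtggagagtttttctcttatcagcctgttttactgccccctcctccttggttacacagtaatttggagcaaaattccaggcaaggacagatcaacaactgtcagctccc
FABP1: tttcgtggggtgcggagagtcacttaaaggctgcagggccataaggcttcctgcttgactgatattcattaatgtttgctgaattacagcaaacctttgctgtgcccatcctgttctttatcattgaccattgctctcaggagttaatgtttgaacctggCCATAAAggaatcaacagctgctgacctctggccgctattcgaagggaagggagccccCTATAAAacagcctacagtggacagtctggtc
FABP2: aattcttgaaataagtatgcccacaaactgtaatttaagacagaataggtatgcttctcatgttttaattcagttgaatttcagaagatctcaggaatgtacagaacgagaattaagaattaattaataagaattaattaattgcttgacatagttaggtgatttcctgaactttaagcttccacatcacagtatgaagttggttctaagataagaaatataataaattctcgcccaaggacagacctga

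Counting back from the start, CDX2 held the CDX motif at -181 to -175, and FABP1 held it at -90 to -84 and at -32 to -26. The match nearer the FABP1 start overlaps the TATA box TATAAA at -31 to -26. The GATA motif AGATAA was found in CDX2, on the opposite strand, at -119 to -114, and in FABP2 at -42 to -37. ISX and LGALS4 held none of these 3 letter strings in this window. Among 35116 promoters of the same length, 8.93% held the CDX motif, 10.7% the TATA box and 9.17% the GATA motif. These matches describe letters and are not evidence of binding.

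RNA libraries held 15107847 to 21009065 counts and Ribo libraries 4710335 to 24186949. The stage labels were checked against marker genes by their summed RNA level. Definitive endoderm markers (6 genes, among them SOX17) summed to 5726 to 6049 CPM in DE, 16.3 to 21.2 in PP1 and 10.1 to 18.7 in PP2. Pancreatic progenitor markers (7 genes, among them PDX1) summed to 104 to 109 CPM in DE, 401 to 419 in PP1 and 286 to 1058 in PP2. Hepatic markers (10 genes, among them ALB and AFP) summed to 35.7 to 40.6 CPM in DE, 13509 to 14489 in PP1 and 4802 to 7225 in PP2. This sum was highest in PP1, as were CDX2, ISX, VIL1 and FABP1. Singly, 3 of the 10 were higher and 6 lower in PP2 against PP1, beside 7.80% higher and 10.6% lower over all tested genes. Of these 10, 5 had no count in DE. Mesenchyme markers (5 genes, among them COL1A1) summed to 264 to 308 CPM in DE, 917 to 1134 in PP1 and 441 to 543 in PP2, a sum also highest in PP1. Of these 5, 1 was higher, 2 were lower and 2 did not pass in PP2 against PP1, beside the same shares of all tested genes. The part of either list in the results was not tested. RNA PP2 replicate 3 stood apart from replicates 1 and 2, and MT-RNR2, a ribosomal RNA of mitochondria, made up 1.65% of Ribo PP2 replicate 1 and 11.004% of Ribo PP2 replicate 3, against 44.6% to 60.8% of the other 5 Ribo libraries. A lower level of a gene in such bulk samples cannot be told apart from fewer cells that express it.

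In RNA, CDX2, ISX, VIL1, FABP1 and CDH17 were low or without counts in DE, and all 5 were higher in PP1. By PP2 the levels of CDX2, ISX, VIL1 and FABP1 had fallen below PP1, and CDH17 had not changed beyond the test. CDX1, FABP2 and LGALS4 stayed at or below 3 counts in every library of either assay. Those 3 failed the filter on low counts in each assay, so tests cover 5 of the 8 genes.

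CDX2, at chr13:27960918-27969315 (GRCh38.p14), had 0.0593 and 0.199 CPM in RNA of the DE libraries (1 and 3 counts), 93.9 and 98.2 CPM in PP1, and 18.0, 20.7 and 7.84 CPM in PP2. The 3 stages did not overlap, and PP2 replicate 3 was the lowest PP2 library. Between PP1 and DE the log2 fold change was 9.50 ± 0.68 (standard error, SE), with an adjusted p of 5.5e-05 in the edgeR quasi-likelihood test. CDX2 fell by 2.63 ± 0.37 on the log2 scale between PP2 and PP1 (edgeR adjusted p = 0.00272), and stayed 6.87 ± 0.66 above DE in PP2 (edgeR adjusted p = 1.4e-04).

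ISX, at chr22:35066158-35087387, had no RNA count in either DE library, 86.0 and 97.99 CPM in PP1, and 31.2, 28.9 and 14.8 CPM in PP2. All PP2 libraries lay between the DE and the PP1 values. With 3 counts over the DE group as the floor, ISX was at least 987-fold higher in PP1 and at least 261-fold higher in PP2. Between PP2 and PP1 it fell by 1.88 ± 0.31 on the log2 scale (edgeR adjusted p = 0.00745). That call was lost without RNA PP1 replicate 1 (adjusted p = 0.0545) or RNA PP1 replicate 2 (adjusted p = 0.0679). CDX1, the paralogue of CDX2, had 1 RNA count in all 7 libraries, in PP2 replicate 3, which allows no fold.

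VIL1, at chr2:218419123-218453295, had the highest RNA level of the 8 genes at each stage, in CPM and per kilobase of gene length. It had 16.1 and 15.2 CPM in DE, 306 and 355 CPM in PP1, and 137, 131 and 104 CPM in PP2, without overlap between stages. VIL1 rose by 4.40 ± 0.24 on the log2 scale between PP1 and DE (edgeR adjusted p = 1.8e-05) and fell by 1.42 ± 0.19 between PP2 and PP1 (edgeR adjusted p = 0.00210). In RefSeq, VIL1 overlaps the protein-coding gene USP37, ISX a long noncoding RNA gene, and CDH17 a long noncoding RNA gene and a pseudogene. Among these, only the symbol USP37 was found among the counted genes. No source used here gives the strand setting of the counting.

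CDH17 had 0.119 and 0.399 CPM in RNA of the DE libraries (2 and 6 counts), 22.8 and 25.5 CPM in PP1, and 16.9, 16.3 and 25.9 CPM in PP2. The PP2 libraries overlapped PP1 through PP2 replicate 3, which held the highest value. CDH17 rose by 6.54 ± 0.47 on the log2 scale between PP1 and DE (edgeR adjusted p = 5.5e-05). Its log2 fold change between PP2 and PP1 was -0.29 ± 0.28 (edgeR adjusted p = 0.511). Without RNA PP2 replicate 3 it was -0.54 and passed (edgeR adjusted p = 0.00935).

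FABP1, at chr2:88122982-88128062, had no RNA count in DE, 9.94 and 10.7 CPM in PP1, and 1.57, 2.09 and 2.90 CPM in PP2. The stages did not overlap. FABP1 was at least 110-fold higher in PP1 and at least 23.6-fold higher in PP2 than in DE, and between PP2 and PP1 it fell by 2.23 ± 0.31 on the log2 scale (edgeR adjusted p = 0.00368). FABP2, its intestinal relative, had no RNA count at DE, 2 and 0 at PP1, and 0, 2 and 1 at PP2. LGALS4 had 1 and 3 RNA counts at DE, 0 and 2 at PP1, and 2, 3 and 0 at PP2. Neither had a level that depth could tell apart between stages, and without the filter no comparison of CDX1, FABP2 or LGALS4 passed.

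Counted together, 5 of the 8 genes were higher in PP1 than in DE in RNA, where 12.3% of 24603 tested genes were higher and 12.0% lower. In PP2 against PP1, 4 of the 8 were lower, where 10.6% of tested genes were lower and 7.80% higher. In PP2 against DE, 5 of the 8 were higher, where 16.4% of tested genes were higher. VIL1 and CDH17 stood 2.98 ± 0.22 and 6.25 ± 0.46 above DE there on the log2 scale, and both passed in edgeR.

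**Figure D1:**
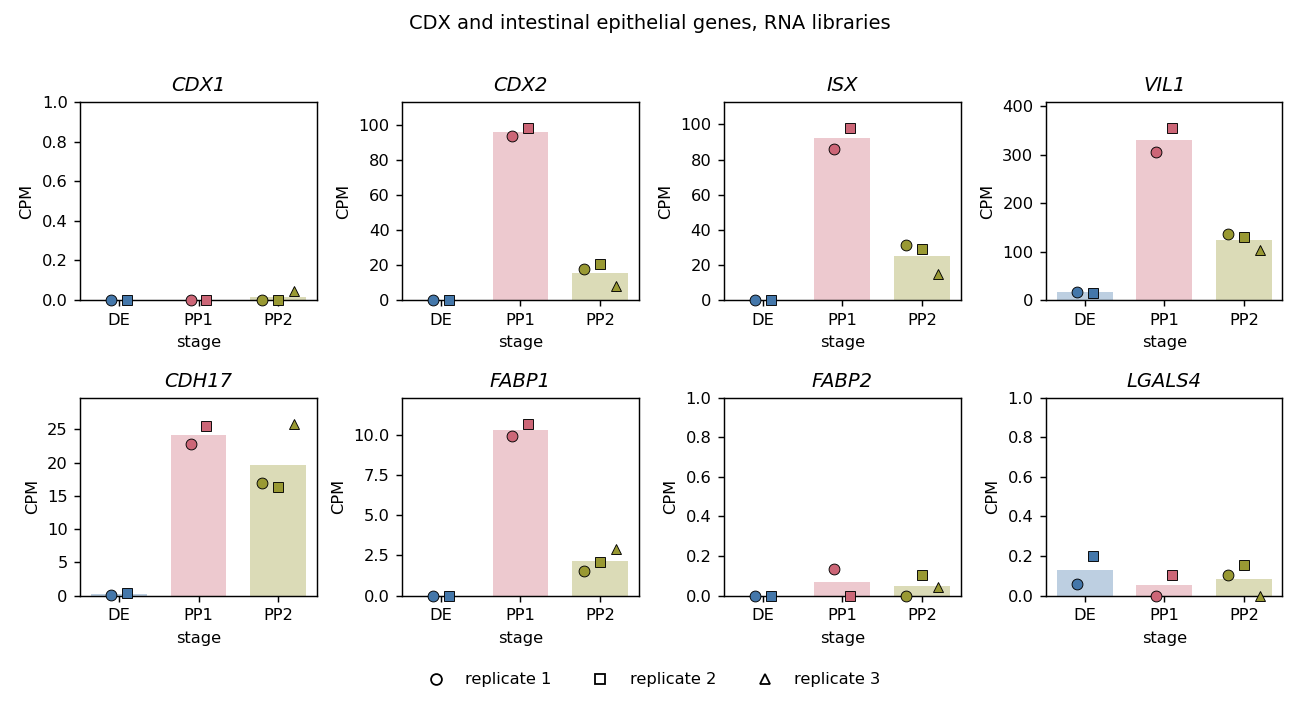
RNA level (CPM) of each of the 8 genes by stage, with 1 panel and its own axis per gene, a point per library and a bar at the stage mean. CDX2, ISX, VIL1 and FABP1 peak in PP1, CDH17 is similar in PP1 and PP2, and CDX1, FABP2 and LGALS4 stay at 3 counts or fewer.

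Set side by side per kilobase of gene length, RNA levels in PP1 were 47.8 ± 5.01 CPM per kilobase for VIL1, 27.2 ± 2.50 for ISX, 23.3 ± 0.746 for CDX2, 6.23 ± 0.483 for CDH17 and 4.18 ± 0.220 for FABP1 (SD, n = 2). Neighbours in that order were each further apart than the sum of their SDs. In PP2 the order of RNA per kilobase was VIL1 at 17.9 ± 2.53, ISX at 7.38 ± 2.61, CDH17 at 5.08 ± 1.38, CDX2 at 3.76 ± 1.64 and FABP1 at 0.885 ± 0.273 (SD, n = 3). The SDs of ISX, CDH17 and CDX2 overlapped there. Within each PP2 library ISX was above CDX2 per kilobase, at 9.21 and 4.37 in replicate 1, 8.55 and 5.01 in replicate 2, and 4.39 and 1.90 in replicate 3, while CDH17 was above CDX2 only in replicate 3, at 6.67. In DE, VIL1 was at 2.26 ± 0.0885 CPM per kilobase (SD, n = 2), and each of the other 7 genes averaged less than 0.1.

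In Ribo all 5 tested genes had the same direction as in RNA between PP1 and DE. The changes of CDX2 and FABP1 were smaller than in RNA and did not pass. ISX, VIL1 and CDH17 were higher in PP1 than in DE, 3 of the 8 genes, where 4.52% of 15067 tested genes were higher. CDX2 and FABP1 had Ribo counts in DE that their RNA there did not match.

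CDX2 had 10.99 and 0.543 CPM in Ribo of the DE libraries (62 and 3 counts), 12.1 and 20.3 CPM in PP1, and 6.61, 4.14 and 6.14 CPM in PP2. The DE libraries thus lay far apart, with the higher just under the lower PP1 library. The log2 fold change between PP1 and DE was 1.49 ± 0.89 (edgeR adjusted p = 0.366), and without Ribo DE replicate 1 it was 4.90 (edgeR adjusted p = 0.0163). Between PP2 and DE it was -0.03 ± 0.80 (edgeR adjusted p = 0.982), and without Ribo DE replicate 1 it was 3.44 (edgeR adjusted p = 0.0292). Of 9312 genes with at least 50 counts in a Ribo DE library, 28 (0.301%) differed by at least 10-fold between the DE libraries, CDX2 among them. Between PP2 and PP1 the value was -1.51 ± 0.78 (edgeR adjusted p = 0.278).

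ISX had 0 and 0.362 CPM in Ribo of DE (0 and 2 counts), 25.0 and 18.0 CPM in PP1, and 6.83, 5.44 and 5.27 CPM in PP2. The stages did not overlap. Its rate in PP1 was 121 times that in DE by counts (95% counting interval 32.9 to 1006), with an adjusted p of 7.1e-04 in edgeR, and in PP2 it was 35.2 times that in DE (9.67 to 292). Between PP2 and PP1 the log2 fold change was -1.87 ± 0.50, which missed the threshold (edgeR adjusted p = 0.0554). It passed without Ribo DE replicate 1 (0.0392), Ribo DE replicate 2 (0.0394) or Ribo PP2 replicate 2 (0.0248).

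VIL1 had 5.14 and 8.33 CPM in Ribo of DE, 228 and 230 CPM in PP1, and 121, 70.03 and 106 CPM in PP2, with no overlap between stages on this scale. Over raw library totals VIL1 had 196, 75.2 and 143 in PP2 against 153 and 168 in PP1, which overlapped. It rose by 5.08 ± 0.49 on the log2 scale between PP1 and DE (edgeR adjusted p = 2.6e-04), and was 3.87 ± 0.45 above DE in PP2 (edgeR adjusted p = 2.6e-04). Between PP2 and PP1 the value was -1.21 ± 0.37 (edgeR adjusted p = 0.0813). Without Ribo PP2 replicate 2 it passed, at -0.99 (edgeR adjusted p = 0.0365).

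CDH17 had no Ribo count in DE, 20.4 and 16.3 CPM in PP1, and 23.99, 5.57 and 40.3 CPM in PP2. The PP2 libraries spread from below to above both PP1 libraries, and the lowest was replicate 2, the PP2 library with the highest share of MT-RNR2. CDH17 was at least 68.6-fold higher in PP1 and at least 94.4-fold higher in PP2 than in DE. Between PP2 and PP1 the log2 fold change was 0.35 ± 0.66 (edgeR adjusted p = 0.801).

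FABP1 had 13.8 and 18.3 CPM in Ribo of DE (78 and 101 counts), 19.4 and 32.2 CPM in PP1, and 5.82, 4.01 and 4.33 CPM in PP2. All PP2 libraries lay below every DE and PP1 library, and DE and PP1 did not overlap but came within a small gap. The log2 fold change between PP1 and DE was 0.68 ± 0.43 (edgeR adjusted p = 0.392). FABP1 fell by 2.43 ± 0.39 on the log2 scale between PP2 and PP1 (edgeR adjusted p = 0.00857), a call lost without Ribo PP1 replicate 1 (0.0510) or Ribo PP1 replicate 2 (0.151). It fell by 1.75 ± 0.39 between PP2 and DE (edgeR adjusted p = 0.00901), a call lost without Ribo DE replicate 2 (0.0792).

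FABP2 had no Ribo count in any library. CDX1 had 0 and 3 Ribo counts at the DE stage, 0 and 2 at PP1, and none at PP2. LGALS4 had at most 2 Ribo counts in a library. In PP2 against PP1, 1 of the 8 genes was lower in Ribo, FABP1, where 2.85% of tested genes were lower. In PP2 against DE, 3 were higher and 1 was lower, where 13.1% of tested genes were higher and 14.5% lower.

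**Figure D2:**
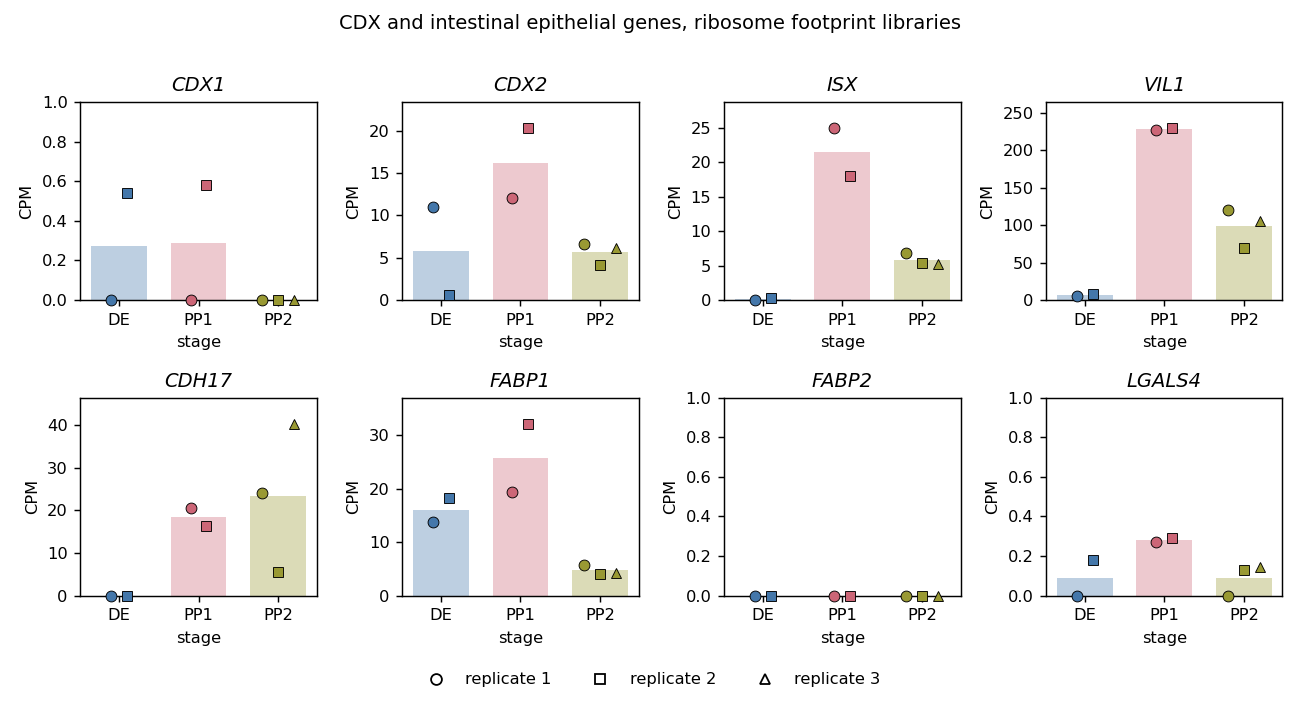
Ribo level (CPM) of each of the 8 genes by stage, with 1 panel and its own axis per gene, a point per library and a bar at the stage mean. CDX2 has DE libraries at 10.99 and 0.543 CPM, FABP1 is present in DE at 13.8 and 18.3 CPM, and CDH17 spreads from 5.57 to 40.3 CPM in PP2.

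The change in translation efficiency (TE) is the Ribo change minus the RNA change, tested as an interaction over 14152 genes that passed the filter in each assay. CDX2 and FABP1 were lower in TE in both comparisons with DE, and ISX, VIL1 and CDH17 did not pass in any, with the ISX result in PP2 against DE depending on the setting. In PP1 against DE the TE change was -7.92 ± 1.30 log2 for CDX2 (edgeR adjusted p = 0.0167) and -9.17 ± 0.98 log2 for FABP1 (edgeR adjusted p = 0.00106), 2 of the 8 genes, where 0.198% of tested genes were lower. In PP2 against DE it was -6.97 ± 1.22 log2 for CDX2 (edgeR adjusted p = 0.00650) and -9.54 ± 0.93 log2 for FABP1 (edgeR adjusted p = 1.4e-04), where 3.67% were lower. For ISX the values were -6.14 ± 1.89 in PP1 against DE (edgeR adjusted p = 0.253) and -6.30 ± 1.89 in PP2 against DE (edgeR adjusted p = 0.0626). The PP2 value of ISX passed without RNA PP2 replicate 3 (0.0386), Ribo DE replicate 1 (0.0442) or Ribo PP2 replicate 2 (0.0418), with no low-count filter (0.0476) and in DESeq2 (adjusted p = 0.0125). Without Ribo DE replicate 2, the library that held both of its Ribo reads in DE, the ISX values were -0.88 in PP1 against DE and -0.96 in PP2 against DE. In PP1 against DE the values were 0.74 ± 0.45 for VIL1 (edgeR adjusted p = 0.632) and 5.37 ± 3.99 for CDH17 (edgeR adjusted p = 0.706), and CDH17 had no Ribo count in DE.

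These sizes rest on the RNA of DE, where FABP1 and ISX had no count and CDX2 had 4, so the fitted values of FABP1 and ISX depend on the prior count and are no bounds, and that of CDX2 rests on few reads. Of 2323 protein-coding genes with no RNA count in DE, 21 had at least 50 Ribo counts in both DE libraries, FABP1 among them. Without Ribo DE replicate 1 the TE change of CDX2 was -4.46 in PP1 against DE (edgeR adjusted p = 0.226) and -3.44 in PP2 against DE (edgeR adjusted p = 0.152). The CDX2 call in PP1 against DE was also lost without any other DE or PP1 library of either assay except Ribo DE replicate 2 (edgeR adjusted p of 0.0588 to 0.169), and in PP2 against DE without either RNA DE library (0.0877 and 0.0594). FABP1 passed in both comparisons under all 21 alternatives, each of which kept its Ribo counts in DE beside no RNA count there.

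Between PP2 and PP1, where both assays had counts, the TE changes were 0.95 ± 0.89 log2 for CDX2, -0.17 ± 0.53 for ISX, 0.03 ± 0.40 for VIL1, -0.38 ± 0.52 for FABP1 and 0.47 ± 0.79 for CDH17. None of the 5 passed in edgeR, where 0.0777% of tested genes passed, and 0 of the 5 had an unadjusted p under 0.05 or passed in DESeq2.

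**Figure D3:**
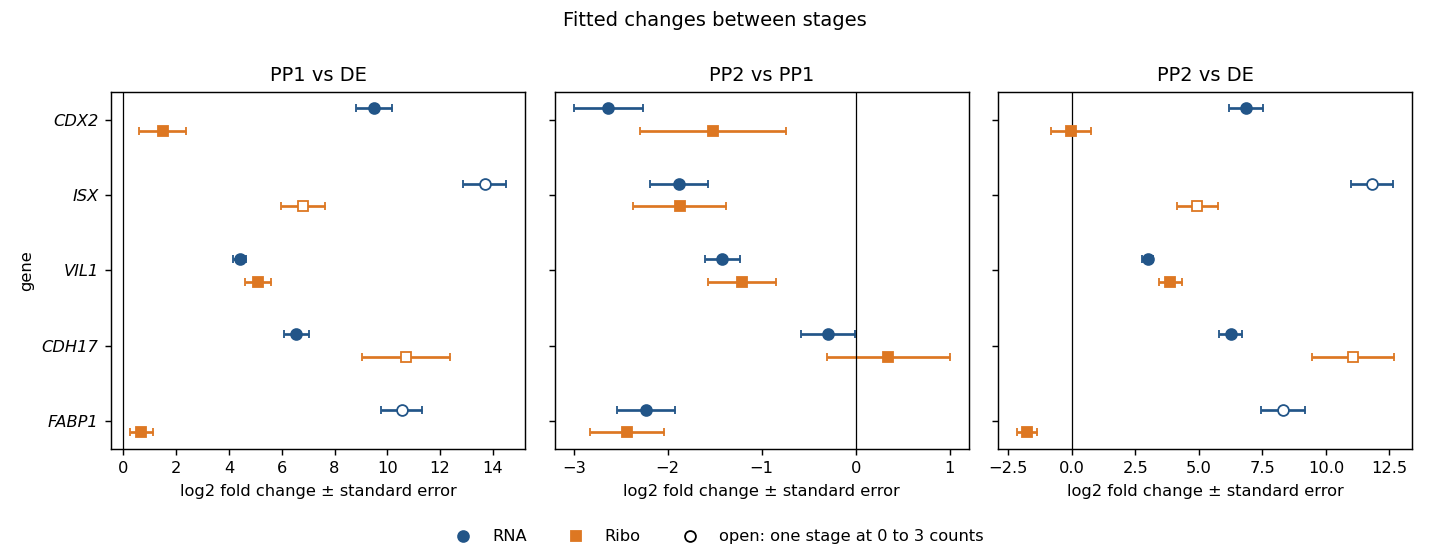
Log2 fold changes ± SE of the 5 tested genes in RNA and Ribo for the 3 stage comparisons, with open marks where a stage had 0 to 3 counts, whose position depends on the prior count. The RNA and Ribo marks of CDX2 and FABP1 lie apart in both comparisons with DE, and in PP2 against PP1 none of the 5 pairs of marks differs past the threshold.

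The Ribo level over the RNA level of the same gene was set beside that of protein-coding genes with at least 1 CPM in RNA. In PP1 the log2 ratio of levels was 1.31 for FABP1, above 98.5% of 11972 such genes. FABP1 also had 13.8 and 18.3 CPM of Ribo in DE without an RNA count there. Its ratios in PP1 and PP2 therefore cannot be read as ribosome loading alone. CDH17 (-0.39, above 77.9%) and VIL1 (-0.53, above 73.9%) lay in the upper part, and the homeobox factors ISX (-2.09, above 18.7%) and CDX2 (-2.56, above 8.85%) in the lower part. In PP2 the ratio was 1.08 for FABP1 (above 96.5% of 11969 genes), 0.24 for CDH17 (86.5%), -0.32 for VIL1 (71.99%), -1.45 for CDX2 (32.7%) and -2.08 for ISX (15.6%). The order of the genes was the same in both stages except that CDX2 and ISX changed places. In DE, VIL1 at -1.20 lay above 49.96%, and the other genes were under 1 CPM in RNA.

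Over the 7 RNA libraries, the genes whose log2(CPM + 1) had the highest Pearson correlation with CDX2 were PGPEP1 (0.998), DCBLD1 (0.998), DOP1B (0.996), FOSL2 (0.996), SLC46A1 (0.996) and SULT1B1 (0.995), of 18930 genes compared. VIL1 ranked 36 (0.989), ISX 53 (0.987), FABP1 332 (0.955) and CDH17 958 (0.891). In all 372 genes were over 0.95, and the 7 libraries form 3 stages, so these values describe a shared low, high, intermediate profile.

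Other genes of the intestine, and relatives of the 8 genes that need not be intestinal, were read from 4 lists, which exclude the 8 genes above. Intestinal transcription factors rose more often than they fell in PP1 against DE in RNA, with 13 of 26 higher, 3 lower, 7 not passed and 3 not tested, beside 12.3% higher and 12.0% lower over all tested genes. Their median log2 fold change was 1.23, beside 0.01 over all tested genes. SOX9, a factor of progenitors in the crypt and in the pancreas, averaged 141 ± 17.6 CPM in PP1 and 1.40 ± 0.466 in DE (SD, n = 2 each), a change of 6.66 ± 0.85. CREB3L3, a factor of lipid metabolism in liver and small intestine, was at least 36.5-fold higher in PP1. HOXD13 and EVX1, homeobox genes of the hind end of the embryo, fell by 6.31 ± 0.45 and 5.88 ± 0.58, and GATA6, an endoderm factor, fell by 1.59 ± 0.48. Each of these named genes passed in edgeR, with adjusted p at or below 0.0440. Without RNA DE replicate 1 the count of higher factors was 8, and without RNA PP2 replicate 3 the count of lower factors was 5.

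In PP2 against PP1 none of the intestinal transcription factors was higher in RNA and 11 of 26 were lower, with 12 not passed, beside 7.80% higher and 10.6% lower over all tested genes, and with a median of -1.08 beside 0.01. At an unadjusted p under 0.05 2 were higher, and DESeq2 called 2 higher. SPDEF, a factor of goblet cells, averaged 0.215 ± 0.106 CPM in PP2 (SD, n = 3) and 5.78 ± 0.746 CPM in PP1 (SD, n = 2), and fell by 4.70 ± 0.47 on the log2 scale. PRDM1, which keeps the fetal state of the mouse gut, fell by 2.77 ± 0.30, and HOXA13, a hindgut factor, fell by 2.42 ± 0.39. The count of lower factors was 5 without RNA PP1 replicate 1 or RNA PP1 replicate 2, and 18 without RNA PP2 replicate 3, where 2 were higher.

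Of 35 genes of the enterocyte brush border and absorption, 11 were higher in PP1 than in DE in RNA, 12 did not pass and 12 were too low to test, with a median of 0.87. Over all tested genes 12.3% were higher and 12.0% lower. MTTP, which loads lipid onto lipoproteins in gut and liver, averaged 355 ± 25.5 CPM in PP1 and 0.126 ± 0.0100 in DE (SD, n = 2 each), a change of 11.39 ± 0.56. The amino acid transporter SLC6A19 was at least 102-fold higher in PP1, and the disaccharidase SI (sucrase-isomaltase) was at least 48.7-fold higher, from 155 counts in PP1 against none in DE. None was lower in edgeR, 0 at an unadjusted p under 0.05 and 0 in DESeq2, and 2 were lower without RNA PP2 replicate 3. In PP2 against PP1, 2 of the 35 were higher and 6 lower, with a median of -0.31, beside 7.80% higher and 10.6% lower over all tested genes. SLC26A3, a chloride exchanger of the colon and ileum, rose by 6.09 ± 0.37, at 42.6 ± 10.3 CPM in PP2 (SD, n = 3) and 0.612 ± 0.0901 in PP1 (SD, n = 2). EPS8, an actin-capping protein of microvilli, rose by 1.88 ± 0.26. The microvillar adhesion partners ANKS4B and USH1C fell by 3.60 ± 0.53 and 2.14 ± 0.27, and SLC6A19 fell by 2.76 ± 0.27. Without RNA PP2 replicate 3, 5 were higher, and without RNA PP1 replicate 1 or RNA PP1 replicate 2, 3 were lower. The untested genes include KRT20 and MUC13, with at most 6 RNA counts in any library, and ALPI, with at most 10.

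Of 16 genes of intestinal stem and secretory cells, 3 were higher, 1 was lower, 4 did not pass and 8 were too low to test in PP1 against DE, beside 12.3% higher and 12.0% lower over all tested genes. Over the 8 tested genes the median was 3.003, and 2.09 with genes at 0 to 3 counts in a stage set to their bound or count ratio. Over all tested genes it was 0.01. Of the 8 tested genes, 6 had 0 to 3 counts in DE or PP1. Genes without counts in DE, such as TFF1, passed the filter through a later stage, so this median does not measure the whole list. LGR5, a receptor of crypt stem cells, had 2 RNA counts over the PP1 libraries and 3359 over the DE libraries, a ratio of rates of 5.6e-04 (95% counting interval 6.8e-05 to 0.00203). The mucus peptide TFF1 was at least 33.0-fold higher in PP1, AGR2, a chaperone of mucin folding, rose by 3.60 ± 0.40, and the Paneth cell enzyme LYZ had a count ratio of 20.7 (3.35 to 856). Without RNA PP2 replicate 3, 2 were lower. In PP2 against PP1, SMOC2, CLCA1 and TFF3 were higher, 3 of the 16, and 1 was lower, beside 7.80% higher and 10.6% lower over all tested genes. SMOC2, a matrix protein of crypt stem cells, rose by 4.39 ± 0.69, CLCA1, a goblet cell protein, rose by 2.53 ± 0.69, and TFF3, a goblet cell peptide, had a count ratio of 45.9 (8.01 to 1834). TFF1 fell by 1.96 ± 0.46. These calls rested on single libraries, with no gene higher without RNA PP1 replicate 1, 1 higher without RNA PP1 replicate 2, and none lower when either PP1 library, or PP2 replicate 1 or 2, was left out. MUC2, the main goblet cell mucin, had at most 1 RNA count in a library, and OLFM4, a stem cell marker, at most 2.

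Relatives of the 8 genes, 15 members of the villin, fatty acid binding protein, galectin and cadherin families, were tested in the same fit. In PP1 against DE, 5 were higher, 1 was lower, 6 did not pass and 3 were too low to test, with a median of 0.26, beside 12.3% higher and 12.0% lower over all tested genes. LGALS3, a galectin of many epithelia, averaged 321 ± 65.0 CPM in PP1 and 3.16 ± 0.0578 in DE (SD, n = 2 each), a change of 6.66 ± 0.31. LGALS2 rose by 3.29 ± 0.53, and SCIN, an actin-severing relative of villin, was at least 32.4-fold higher. FABP7, the brain-type fatty acid binding protein, was at least 9.90-fold lower in PP1, a call lost without any 1 of the 4 RNA DE and PP1 libraries. In PP2 against PP1, 1 was higher and 6 were lower, with a median of -0.93, beside 7.80% higher and 10.6% lower over all tested genes. LGALS2, LGALS3 and LGALS1 fell by 2.60 ± 0.43, 2.43 ± 0.21 and 2.22 ± 0.39. CDH1, the cadherin of all epithelia, rose by 0.67 ± 0.18, at 585 ± 23.9 CPM in PP2 (SD, n = 3) and 369 ± 44.8 in PP1 (SD, n = 2), and that call was lost without any 1 of the other 6 RNA libraries than PP2 replicate 3.

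**Figure D4:**
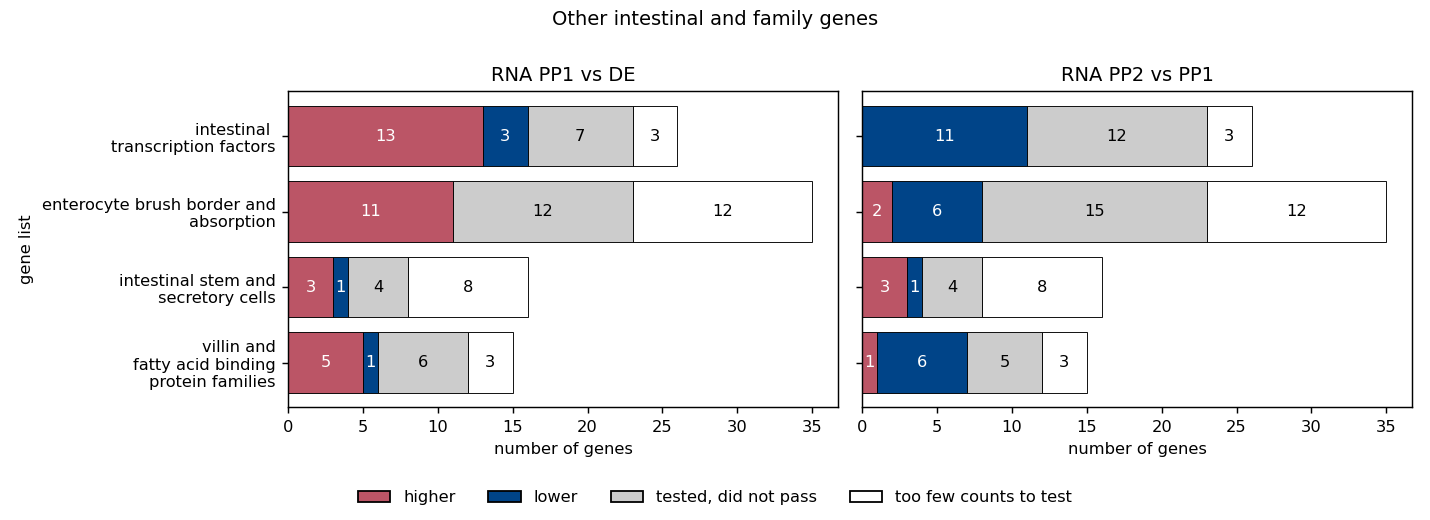
Number of genes of each list that were higher, lower, not passed or not tested in RNA, for PP1 against DE and PP2 against PP1. Higher genes outnumber lower ones in all 4 lists in PP1 against DE, and lower genes outnumber higher ones in PP2 against PP1 in 3 lists, the exception being stem and secretory cells.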

How the data were processed

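RNA and Ribo libraries of HUES8 cells were used as the deposited table gave them, and no library was left out. The authors deposited raw read counts per gene symbol and a gene length in bases. Per the submitters' processing notes, the tools were cutadapt 1.18, Bowtie 1.2, STAR 2.7.1a and featureCounts 1.6.4 with hg38. The sources used here do not give their roles, the strand setting, the annotation release or the features over which Ribo reads were counted, and each could change the level of overlapping genes.

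All 3 stages of an assay entered a common fit in edgeR 4.0.16 under R 4.3.3, after filterByExpr with default settings, with trimmed mean of M-values scaling and the quasi-likelihood test. The change in TE was the interaction of assay and stage in 1 fit of all 14 libraries with 6 groups. P-values were adjusted by Benjamini-Hochberg over all tested genes, and an adjusted p under 0.05 passed. The fold changes are log2. Their SE was derived as the absolute log2 fold change over the square root of the quasi-likelihood F statistic. Where a stage was at or near 0 counts, this SE depends on the prior count too. Against a stage without counts a bound was computed from 3 counts over the group. With 1 to 3 counts a ratio of rates was given with its exact 95% counting interval, and such bounds and intervals cover counting error only. Levels of different genes were compared per kilobase of the deposited length. The level ratio of Ribo over RNA added 0.1 CPM to each.

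The 8 genes, the lists and the alternatives were chosen with earlier results of these data known. The median of a list covers its tested genes only. From each list, up to 3 genes with the largest and 3 with the smallest passing change were named, except 1 gene that is not reported here. Alternatives were DESeq2 size factors, mitochondrially encoded genes left out, no low-count filter, the DESeq2 1.42.0 Wald test, a fit of only the stages compared, a replicate block, each library left out, and Ribo PP2 replicates 1 and 3 left out together. The scripts were tested on simulated data.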

Additional observations from a re-analysis of the deposited data

Results flagged for a closer look

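The Ribo change differed from the RNA change for CDX2 and FABP1 in both comparisons with DE, by the test of the interaction itself. For CDX2 the difference was -7.92 log2 in PP1 against DE and -6.97 log2 in PP2 against DE. CDX2 had 62 and 3 Ribo counts in the DE libraries, beside 1 and 3 RNA counts, and the difference in both comparisons missed the threshold without Ribo DE replicate 1.

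For FABP1 the difference was -9.17 log2 in PP1 against DE and -9.54 log2 in PP2 against DE. FABP1 had 78 and 101 Ribo counts in the DE libraries and no RNA count there, so these sizes depend on the prior count.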

How the results depend on the processing

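With 5 tested genes in 9 comparisons, 720 values were recomputed under the alternatives. Of these, 666 kept their direction and their side of the threshold, 18 lost a call, 16 gained a call and 20 changed sign. The count of genes that passed in Ribo in PP2 against PP1 was 1. It was 3 with the DESeq2 Wald test, 2 with only the stages compared, 2 without Ribo PP2 replicates 1 and 3, and 0 to 3 with each library left out. The count for TE was 2 in PP1 against DE, with 1 to 2 when each library was left out. It was 2 for TE in PP2 against DE, with 1 to 3 when each library was left out and 1 without Ribo PP2 replicates 1 and 3. Other counts of the 8 genes stayed within 1.5 times.

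Values that changed sign lay near 0 or had a wide error. CDX2 in Ribo, PP2 against DE, was 0.025 without mitochondrially encoded genes, 0.29 with no low-count filter, and -0.87 to 3.44 with each library left out. CDH17 in Ribo, PP2 against PP1, was -1.71 without Ribo PP2 replicates 1 and 3 and -0.30 to 0.82 with each library left out. For TE in PP2 against PP1, ISX was 0.10 with no low-count filter, VIL1 was -0.41 and CDH17 -1.54 without Ribo PP2 replicates 1 and 3. With each library left out these TE values were -0.44 to 0.15 for ISX, -0.11 to 0.19 for VIL1, -0.64 to 0.15 for FABP1 and -0.15 to 0.90 for CDH17. The cause was not tested.

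Whether equal replicate numbers pair the samples is not given. Same-numbered libraries of RNA DE and RNA PP1 had a correlation of deviations of -0.026, and those of Ribo DE and Ribo PP1 0.074. It was -0.248 for replicate 1 of Ribo PP1 and Ribo PP2, and 0.146 for replicate 2 of RNA DE and RNA PP2. With 2 libraries in a stage the deviations mirror each other, so these values cannot decide whether samples were paired. Only PP2 has a replicate 3, so within an assay the block fits that library exactly and takes it out of the stage comparisons. With the replicate block, 0 of the 8 genes passed in Ribo in PP2 against PP1. Under the block, FABP1 missed the threshold in Ribo in both comparisons with PP2 (adjusted p = 0.0693 against PP1 and 0.0720 against DE), CDH17 passed in RNA in PP2 against PP1 at -0.54 (adjusted p = 0.00877), CDX2 in Ribo in PP2 against DE was 0.25, and CDH17 in Ribo in PP2 against PP1 was -0.62. These adjusted p are from edgeR.

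The levels depended on the library size used. Of 48 stage means in CPM over both assays, 11 moved by more than the SD between libraries over raw totals and 14 over totals without mitochondrially encoded genes. Over raw totals, CDX2 and VIL1 overlapped between PP2 and PP1 in Ribo, and CDX2 and FABP1 between PP1 and DE.

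The number of all genes called depended strongly on single libraries. In RNA it was 5979 in PP1 against DE (2935 to 11997 with each library left out, 11711 with the block), 4533 in PP2 against PP1 (1210 to 9984, 9758 with the block) and 8240 in PP2 against DE (4216 to 12649, 12475 with the block). In Ribo it was 1135 (424 to 2228, 745 with the block), 755 (58 to 3474, 201) and 4153 (1788 to 6837, 1682) in the same order of comparisons. For TE it was 38 (6 to 132, 21), 11 (0 to 1110, 2) and 804 (52 to 3704, 301). With only the stages compared, RNA in PP1 against DE gave 11211 and Ribo in PP1 against DE gave 3149. Without Ribo PP2 replicates 1 and 3, Ribo gave 3005 in PP1 against DE and 2410 in PP2 against DE. Ribo gave 1772 with no filter and 1597 with DESeq2 in PP2 against PP1. With no filter, DESeq2, only the stages compared, and Ribo PP2 replicates 1 and 3 left out, TE gave 103, 221, 756 and 185 in PP1 against DE, 76, 243, 0 and 0 in PP2 against PP1, and 2135, 2069, 205 and 191 in PP2 against DE. Without mitochondrially encoded genes TE gave 17 in PP2 against PP1. Intestinal transcription factors lower in RNA in PP2 against PP1 numbered 18 with no filter and 18 with the block.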

Other observations

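Ratios of counts within a library, chosen after the values were seen, need no scaling between libraries. In RNA the CDH17 count over the CDX2 count was 0.939, 0.790 and 3.30 in PP2 replicates 1, 2 and 3, against 0.243 and 0.259 in PP1. The VIL1 count over the CDX2 count was 7.58, 6.34 and 13.3 in PP2, against 3.26 and 3.61 in PP1. The ISX count over the CDX2 count was 1.73, 1.40 and 1.89 in PP2, against 0.916 and 0.997 in PP1. All 3 ratios were higher in every PP2 library than in both PP1 libraries. They share the CDX2 count as denominator, so they are not 3 separate results. CDX2 had the largest RNA fall of the 5 tested genes in PP2 against PP1 (-2.63 log2). In Ribo the CDH17 count over the CDX2 count was 3.63, 1.34 and 6.56 in PP2, against 1.69 and 0.800 in PP1, and those groups overlapped. The Ribo ratio of VIL1 over CDX2 was 18.3, 16.9 and 17.2 in PP2, against 18.8 and 11.3 in PP1. That of ISX over CDX2 was 1.03, 1.31 and 0.859 in PP2, against 2.07 and 0.886 in PP1, so all 3 Ribo ratios overlapped between the stages.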
